A study of Nematostella vectensis with 17 samples.

Results

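Brachyury is a T-box transcription factor, a DNA-binding protein that in many animals marks the rim of the blastopore, the site of gastrulation, and controls genes of the tissue that forms there. Sites where the same factor binds several times within a short stretch of DNA are known from enhancers of other developmental factors, and in chromatin immunoprecipitation such a stretch can appear as a row of neighbouring peaks. The regions described here are such rows: 526 clusters of 3 or more Brachyury peaks in gastrulae of the sea anemone Nematostella vectensis. They hold 1952 of the 10607 peaks (18.4%) that were found with antibody AB1 and overlapped a peak of antibody AB2 by at least 1 bp. Shared AB1 peaks were sorted by summit, the point of highest signal, and summits at most 1000 bp apart were joined. This gave 7987 chains, of which 6267 were isolated peaks, 1194 were pairs and 526 (6.59%) had at least 3 peaks. Position and sharing chose the clusters. Height was no criterion of its own, but it entered through sharing, since high peaks were shared more often than low ones (49.7% of lone AB1 peaks in the lowest of 3 equal score classes and 97.5% in the highest).

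The binding data came from whole embryos at the gastrula stage, raised at 21 °C, with no genotype or treatment recorded for them beyond formaldehyde fixation (2% for 12 min). Chromatin was sheared to an average of 100 to 200 bp. AB1 and AB2 are rabbit antibodies made against full-length Nematostella Brachyury produced in bacteria, and the 3 binding samples were 1 for each antibody and 1 input. The series also holds 14 RNA libraries of morpholino-injected embryos, which were not used here. Each antibody had a single peak list, with 14257 AB1 and 16005 AB2 peaks, so no value below has a replicate error. No test between samples was possible, and differences between classes of peaks are descriptions of these lists. The lists give no read totals, so the depth is unknown. Positions are on scaffolds of the genome build nemVec1. The genes and the DNA sequence at the clusters were not analysed here.

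Most clusters were small. There were 324 with 3 peaks (61.6%), 109 with 4, 77 with 5 or 6 and 16 with 7 or more. The distance from first to last summit had a median of 1147.5 bp and ran from 429 to 4930 bp. Inside the clusters 1426 neighbouring summits were separated by a median of 438 bp, and the middle 50% of these distances lay between 303 and 637 bp. Spacings over 200 and up to 400 bp made up 42.2% of the total, and 29 were at most 200 bp. Pairs were spaced much the same, with a median of 448 bp and 40.5% in the same range. Distances in both classes are at most 1000 bp by the rule, so similar medians can follow in part from that limit. Longer clusters were not more tightly packed in steady steps, since the median spacing was 439 bp with 3 peaks, 438 bp with 4, 449 bp with 5 or 6 and 415.5 bp with 7 or more.

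**Figure D1:**
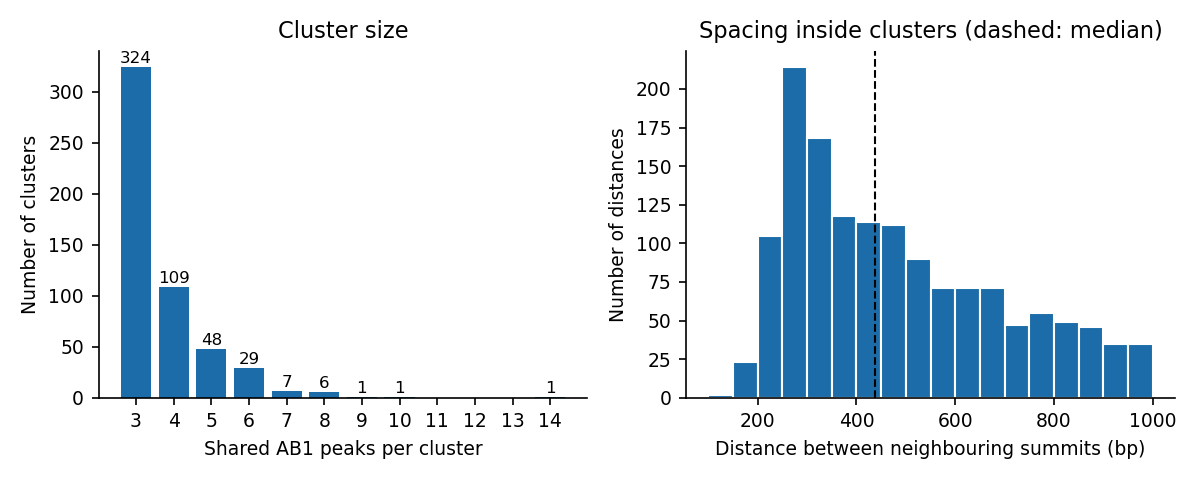
Left, number of clusters against the number of shared AB1 peaks in each; right, number of distances against the distance between neighbouring summits in bp, in steps of 50 bp, for all 1426 distances inside clusters. Clusters of 3 peaks were the most frequent (324), and spacings were most frequent below the median of 438 bp (dashed line).

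The lists limit how finely a cluster can be resolved. AB1 peaks are almost all listed at a width of 244 bp (99.8%) and AB2 peaks at 158 bp (99.9%). No 2 AB1 summits in the whole list were closer than 142 bp, and no 2 AB2 summits were closer than 81 bp, so binding sites nearer to each other than that would not be listed apart. In 117 of the 1426 cluster spacings (8.2%) the neighbouring AB1 peaks were closer than their width and overlapped. The joining distance itself fell in a smooth part of the distribution: 147 spacings of shared summits fell up to 100 bp below that distance and were joined, and another 147 fell up to 100 bp above it and were not. Just inside the limit on peak number, chains of 3 had a median best AB1 score of 4.82, and just outside it, pairs had 3.215. The best of 3 scores tends to exceed the best of 2 through peak number alone. Over single peaks the median AB1 scores were 2.45 in chains of 3 and 2.23 in pairs.

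The clusters with the highest AB1 scores show how the peaks are arranged. The score of a peak is the authors' own and equals the signal minus the control signal, times a distribution score listed with the peak. The fold enrichment is the signal over the control. In the cluster on scaffold 286 (137241 to 138569) the 4 AB1 scores in order of position were 32.3, 71.1, 14.3 and 1.30. The AB2 partners scored 34.8, 95.2, 12.6 and 1.81. The second peak was the highest in both lists, with a fold enrichment of 85.3 with AB1 and 156.3 with AB2, and it lay 299 bp from the first and 256 bp from the third. The first peak by itself ranked 12 in the AB1 list and 8 in the AB2 list. The last peak, 1085 bp from the first, was low with AB1, at rank 11084 of 14257, and ranked 7686 of 16005 with AB2. The lowest score listed is 1 in both lists.

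A cluster of the same size on scaffold 52 (937567 to 938663) had 3 strong peaks side by side. Its AB1 scores were 17.4, 19.0, 38.3 and 1.17, and its AB2 scores 27.2, 28.5, 47.7 and 3.82. The 3 strong summits lay within 533 bp, and all 3 ranked among the highest 100 peaks of each list. Here the order by AB2 fold differed from the order by score: the second peak had an AB2 fold of 114.07 and the third 103.69.

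In other clusters the best AB1 peak stood further above the second. On scaffolds 46 and 51 the difference was small, at 2.55 and 2.42 times, against 2.20 times on scaffold 286. On scaffold 62 (665731 to 667520) the AB1 scores were 10.5, 49.2 and 2.44, with AB2 scores of 7.17, 39.0 and 2.56. The middle peak thus stood 4.70 times above the next with AB1. On scaffold 46 (323313 to 325842) the 7 AB1 scores were 1.57, 1.5, 16.5, 1.26, 42.1, 2.88 and 5.99, and the AB2 scores 1.79, 1.51, 17.8, 1.46, 28.7, 7.78 and 3.69. The 2 highest AB1 peaks there were 805 bp apart, with a peak of 1.26 between them. On scaffold 51 (496017 to 498865) the 6 AB1 scores were 5.66, 39.8, 1.71, 6.26, 2.18 and 16.4, and the AB2 scores 4.18, 30.4, 2.24, 6.49, 5.43 and 8.76. Its second highest AB1 peak was the last of the row, 2605 bp from the first summit, so the highest peaks were not always neighbours.

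**Figure D2:**
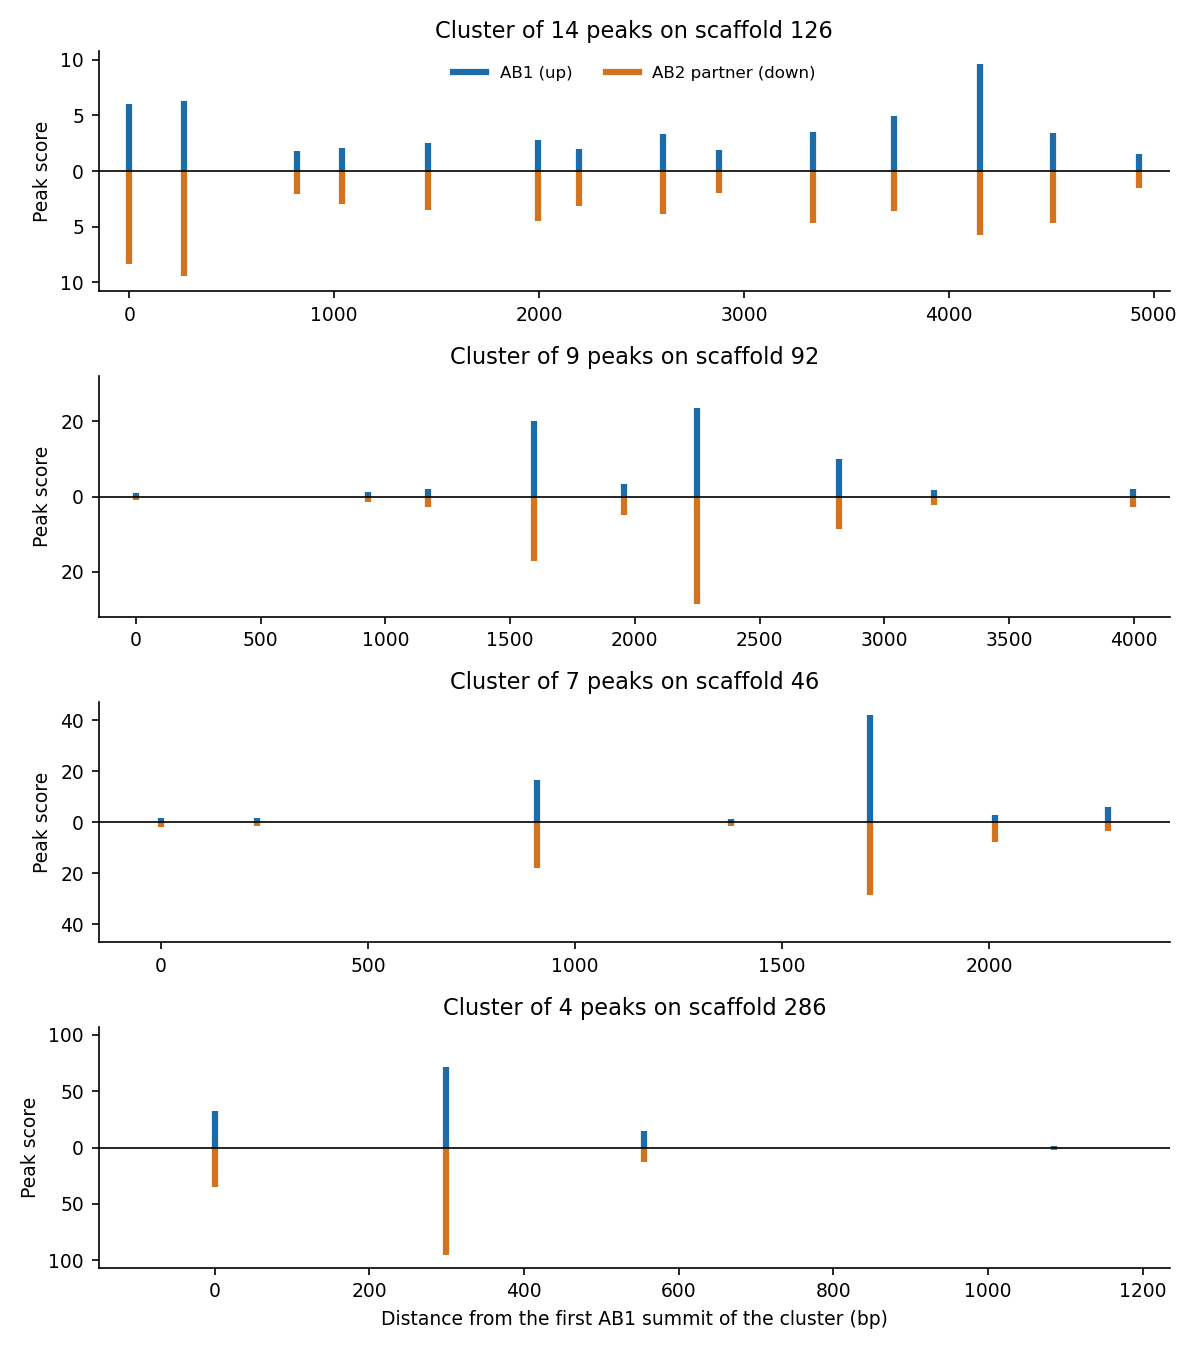
Peak scores of AB1 (up) and of the AB2 partners (down) against the distance in bp from the first AB1 summit, in 4 clusters chosen by size or score, each panel with its own vertical scale. On scaffold 126 the 14 AB1 scores run from 1.52 to 9.66, while on scaffold 286 a peak of 71.1 is flanked by peaks of 32.3 and 14.3.

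The cluster with the most peaks was built differently. On scaffold 126 (310118 to 315291) 14 peaks were spread over 4930 bp, with AB1 scores between 1.52 and 9.66 and no spacing over 551 bp. The strongest AB1 peak was the twelfth in the row, at 9.66, where the AB2 partner scored 5.77. With AB2 the strongest was the second, at 9.41, where AB1 gave 6.33. By nearest-summit partners the antibodies thus ranked the peaks of this region differently, although each AB1 peak had an AB2 partner of its own. At that second peak, however, the 2 summits lay 98 bp apart, against a median of 14 bp for cluster peaks. Whether they mark the same site was not tested. The row was overlapped by 19 AB2 peaks, of which the 14 nearest-summit partners were ranked. A further 3 AB2 peaks without an AB1 partner lay between the first and last summit.

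The clusters of 8 to 10 peaks were mostly rows of moderate peaks. On scaffold 84 (594227 to 598741) the 10 AB1 scores ran from 1.18 to 4.29. On scaffold 92 (58552 to 62791) the 9 AB1 scores were 1.03, 1.25, 2.13, 20.1, 3.32, 23.7, 10.0, 1.78 and 2.05, so the 3 strong peaks sat in the middle of a row with weak flanks. The 6 clusters of 8 peaks had best AB1 scores of 12.4 (scaffold 90, 368530 to 371693), 8.97 (scaffold 2, 1028843 to 1032131), 8.17 (scaffold 21, 316560 to 320034), 7.10 (scaffold 21, 272210 to 276256), 7.03 (scaffold 83, 766221 to 771015) and 5.63 (scaffold 84, 730550 to 734105). All 6 had 8 separate AB2 partners. In 5 of the 6 the same peak was the strongest with both antibodies, the exception being the second cluster of scaffold 21, at 272210 to 276256, where AB1 peaked at the third and AB2 at the sixth peak.

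Over all clusters the heights were uneven. The best AB1 score of a cluster had a median of 5.51 and ran from 1.29 to 71.1. It was a median of 1.63 times the second score and 3.24 times the lowest, and it made up a median of 46.4% of the summed score. In 190 clusters (36.1%) the best peak was at least 2 times the second, and in 137 (26%) it was under 1.2 times the second. At least 1 peak with an AB1 score under 1.5 was contained in 272 clusters (51.7%), a count that depends on the number of peaks per cluster. Per peak, such scores were less frequent in clusters (373 peaks, 19.1%) than among isolated peaks (25.2%). In 90 clusters (17.1%) every peak lay above 2.19, the median of all shared AB1 peaks, and in 42 (7.98%) none did. At the other end, 120 clusters (22.8%) had a peak of 10 or more, and 26 had at least 2 such peaks.

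The strongest peak had no fixed place in the row. Among the 324 clusters of 3 peaks it was the first by coordinate in 106, the middle in 100 and the last in 118. Scaffold orientation is arbitrary, so first and last carry no direction.

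The AB2 partners of cluster peaks were nearly always separate peaks. At least 3 separate AB2 partners were found in 522 of the 526 clusters (99.2%), and in 518 (98.5%) there were as many AB2 partners as AB1 peaks. Every cluster peak has an AB2 partner by the rule, so these counts show only that the partners were separate peaks. With all AB1 peaks chained, shared or not, 67.9% of the clusters had at least 3 AB2 partners, and with the shared AB2 peaks chained 75.4% had at least 3 AB1 partners. The summits of partners, taken as the nearest among overlapping peaks, were a median of 14 bp apart, as they were for isolated peaks, and 92.5% lay within 50 bp, against 93.0% for isolated peaks. The same peak was the strongest with both antibodies in 394 clusters (74.9%). The share differed with how far the best peak stood out: it was 183 of 190 (96.3%) where the best AB1 score was at least 2 times the second, and 59 of 137 (43.1%) where it was under 1.2 times the second. Across the 526 clusters the best AB1 and AB2 scores had a Pearson r of 0.92 on log2 values and a Spearman rho of 0.91. Those points share the input sample and the same chromatin stage, and they are regions, not replicates.

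**Figure D3:**
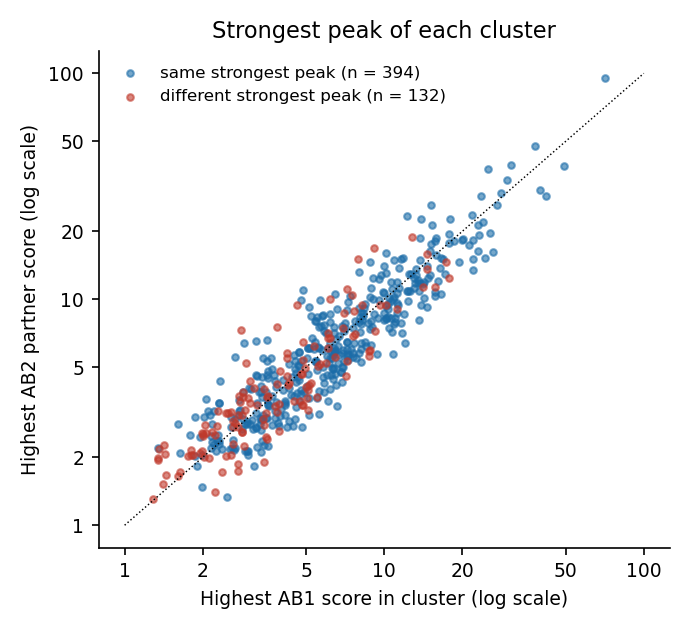
Highest AB2 partner score against the highest AB1 score of each of the 526 clusters, both on log scales, coloured by whether the same peak is the strongest in both lists, with the line of equal scores dotted. The 132 clusters with different strongest peaks have a median best AB1 score of 3.545, against 6.315 in the other 394, and the cluster on scaffold 286 is at the upper right with 71.1 and 95.2.

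Some peaks inside the clusters were found with 1 antibody only. Between the first and last summits there were 114 AB2 peaks without an AB1 partner, in 96 clusters (18.3%), and 32 AB1 peaks without an AB2 partner, in 30 clusters (5.7%). In the whole lists 4762 AB2 peaks (29.8%) and 3650 AB1 peaks (25.6%) had no partner. Those are shares of peaks, while the 18.3% and 5.7% are shares of clusters, so they cannot be compared directly. The spans are bounded by AB1 summits, and AB2 summits can lie closer together, so the 2 counts are not on an equal footing. The AB2 peaks without a partner had a median AB2 score of 1.495 inside clusters and 1.29 elsewhere, and the AB1 peaks without a partner had a median AB1 score of 1.36 and 1.35. AB2 peaks are listed with a narrower width, and 230 of the 1952 cluster peaks overlapped at least 2 AB2 peaks. When the shared AB2 peaks were chained in place of the AB1 peaks, 696 clusters were found, with up to 19 peaks. Of the AB1 clusters 519 (98.7%) overlapped one of these, and of the AB2 clusters 519 (74.6%) overlapped an AB1 cluster. The first share follows almost wholly from the rule, since each cluster peak has an AB2 partner and nearly all partners were separate peaks.

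Peaks in clusters were higher than those in pairs or alone. The median AB1 score was 2.56 in clusters, 2.23 in pairs and 2.09 for isolated peaks, and that of the AB2 partners was 2.73, 2.28 and 2.05. The classes overlapped widely, with 80% of the AB1 scores between 1.27 and 8.30 in clusters and between 1.21 and 5.18 for isolated peaks. The difference was largest among strong peaks: scores of at least 10 were reached by 154 cluster peaks (7.89%), 86 peaks of pairs (3.6%) and 135 isolated peaks (2.15%). Of the 100 highest peaks of the AB1 list 40 were in clusters, 21 in pairs and 38 isolated, and 1 was not shared. Clusters hold 18.4% of the shared AB1 peaks and 13.7% of the whole list, pairs 16.7% and isolated peaks 44.0% of the whole list. Clusters held 327 of the highest 1000 AB1 peaks (32.7%). Their AB2 partners supplied 40 of the 100 highest AB2 peaks and 317 of the highest 1000 (31.7%), at 13.2% of that list.

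The control signal moved with the same classes. It was a median of 0.74 at AB1 cluster peaks, 0.69 in pairs and 0.65 at isolated peaks, and 0.50, 0.47 and 0.44 in the AB2 list. The classes were accordingly closer in fold enrichment than in score, with AB1 medians of 4.70, 4.50 and 4.41 and AB2 medians of 6.71, 6.125 and 6.00. Control signals above 1.2, the 95th percentile of shared AB1 peaks, were found at 112 cluster peaks (5.74%) and at 4.8% of isolated peaks. The highest control signal was 2.43 at a cluster peak and 14.8 at an isolated peak. With peaks above the 95th percentile left out, 471 clusters were found by the same rule and the median AB1 fold of their peaks was 4.82. The part of the control signal in the higher scores was not tested.

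**Figure D4:**
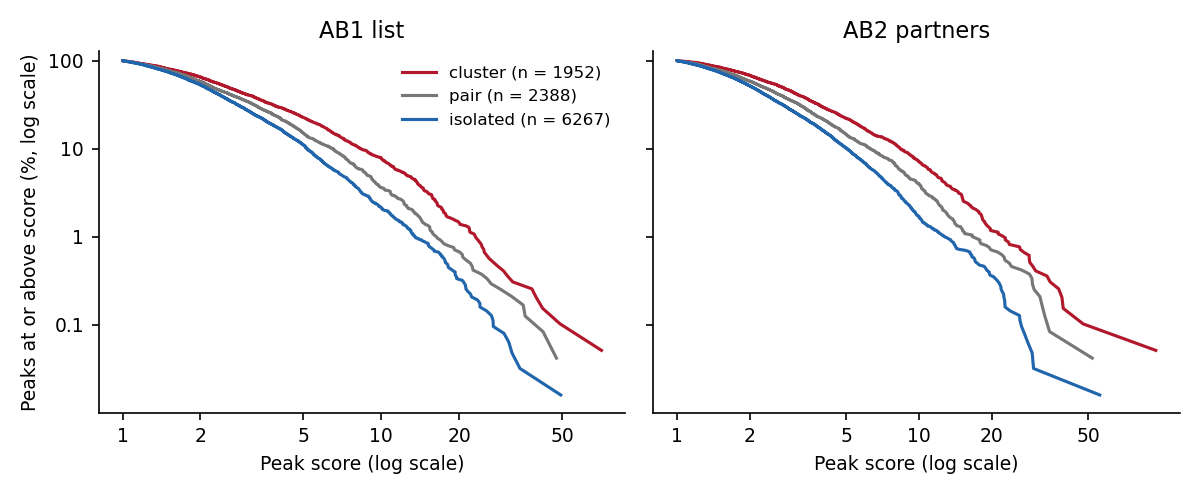
Percentage of peaks at or above each score, both axes on log scales, for shared AB1 peaks (left) and their AB2 partners (right) in clusters, pairs and alone. The 3 curves separate with rising score, and at an AB1 score of 10 they stand at 7.89%, 3.6% and 2.15%.

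Clusters with more peaks were higher at their best peak, which follows in part from having more peaks to choose from. The median best AB1 score was 4.82 with 3 peaks, 6.17 with 4, 6.39 with 5 or 6 and 11.0 with 7 or more. The median over their single peaks, which does not grow with the number of peaks in that way, was 2.45, 2.655, 2.73 and 2.835. That of the AB2 partners was 2.505, 2.845, 2.93 and 3.445. The median fold enrichment did not rise in step, at 4.57, 4.90, 4.74 and 4.85 with AB1 and 6.41, 7.17, 6.885 and 7.325 with AB2. The lowest peak of a cluster had a median AB1 score of 1.535, 1.38, 1.42 and 1.22. The median control signal was 0.73, 0.72, 0.775 and 0.82 in the same order, and its part in the rise of the scores was not tested.

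Whether crowding of AB1 peaks goes with detection by AB2 can be asked without the rule, by chaining all AB1 peaks whether shared or not. Of the AB1 peaks alone 73.2% had an AB2 partner, of those in chains of 2 75.4%, and of those in chains of 3 or more 76.5%. Within classes of score the picture was mixed. With the list divided into 3 equal classes by score, in the lowest, up to a score of 1.5, the share was 49.7% for peaks alone and 59.9% in chains of 3 or more. In the middle class, up to 2.43, it was 78.3% and 65.7%. In the highest class it was 97.5% and 95.1%. In the AB2 list the shares with an AB1 partner were 64.8%, 74.1% and 76.9% for peaks alone, in chains of 2 and in chains of 3 or more, and within its lowest class 38.5%, 50.0% and 49.3%. Its middle class had 70.0%, 75.8% and 74.9%, and its highest 94.6%, 94.8% and 95.2%. Height thus went with sharing in both lists. The number of neighbours had no single direction in the AB1 list. In each class of the AB2 list the share was higher in chains of 3 or more than for peaks alone, by little in the highest class.

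**Figure D5:**
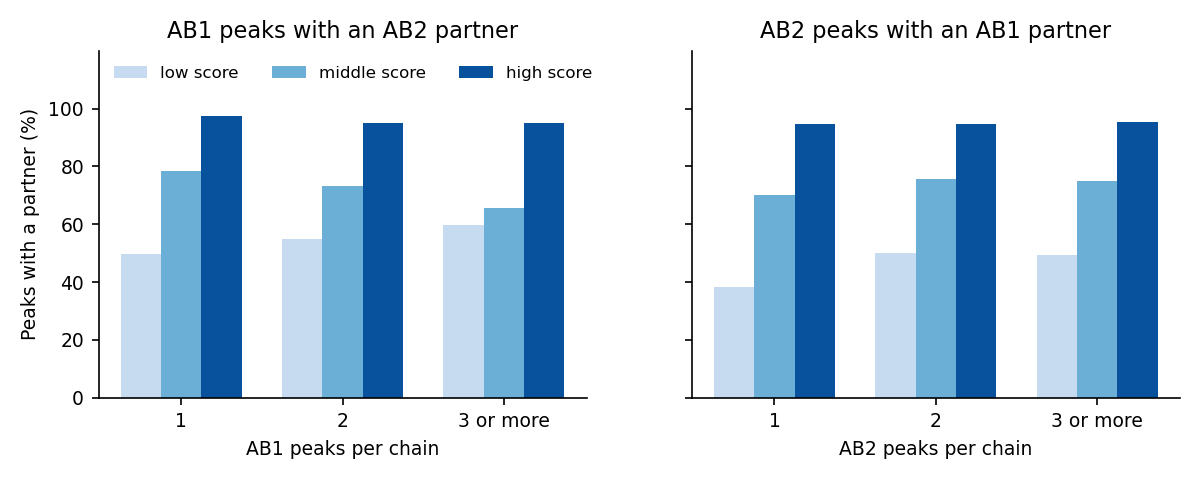
Percentage of peaks with a partner in the other list against the number of peaks in the chain, with all AB1 peaks (left) or all AB2 peaks (right) chained and divided into 3 equal classes of score. High-scoring peaks have a partner in 94.6% to 97.5% of cases at every chain length, while in the middle AB1 class the share is 78.3% for peaks alone and 65.7% in chains of 3 or more.

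Clusters also lay closer to further shared peaks than isolated peaks did. The nearest shared summit outside a cluster was a median of 3013.5 bp away, against 5451 bp for pairs and 7755.5 bp for isolated peaks. By the rule it is over 1000 bp away in each case. It lay within 2000 bp for 181 clusters (34.4%), 304 pairs (25.5%) and 1257 isolated peaks (20.1%). The classes were themselves set by distances between shared summits, so the distances outside are not independent of the rule. How much of the difference follows from the rule was not tested. No other shared peak was on the scaffold for 12 clusters and 461 isolated peaks, which were left out of the medians and counted as farther away in the shares.

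The clusters were spread over 240 of the 1056 scaffolds with a shared peak. Scaffold 4 held 16, scaffold 2 held 13, scaffold 1 held 11 and scaffold 49 held 10. On scaffold 49 the clusters took in 42 of 94 shared AB1 peaks (44.7%), against 31.4% on scaffold 4 and 25.2% on scaffold 1, and 18.4% over all scaffolds. These scaffolds were picked for holding the most clusters, so shares above 18.4% follow in part from that choice. Most clusters of scaffold 49 lay in 1 stretch, between 46303 and 81115. A cluster had another on its scaffold in 393 cases, at a median distance of 76209 bp, and 119 lay within 20000 bp of another. Scaffold lengths were not used here, so these counts are not densities.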

How the data were processed

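Each antibody had 1 peak list, deposited by the authors. Besides coordinates it gives, per the file headers, a score, the signal in the immunoprecipitate and in a control, and their ratio as the fold enrichment. The score deposited by the authors equals the signal minus the control signal, times a distribution score, to within 0.0294 at most, and the lowest score is 1 and the lowest fold 2. The scale of the signal deposited by the authors is not stated. The submitters' processing notes name BWA, and nemVec1 is named with the lists; the peak caller is not given in the sources used here. Starts were taken as 0-based and are given 1-based. Lists were joined and chained with Python 3.11.15, numpy 2.4.6 and pandas 2.3.3; the chaining was tested on simulated data with planted clusters. The partner of a peak is the AB2 peak with the nearest summit among those overlapping it. Named clusters are the 10 with the most peaks, the 5 with the highest AB1 score and the 5 with the longest span. The clusters and the quantities described were chosen with earlier results of these data known. Alternatives changed the overlap, the joining distance, score and control limits, the list chained and the scaffolds. Columns of per-sample values without a sample numbered 0.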

Additional observations from a re-analysis of the deposited data

How the results depend on the processing

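There were 10 alternatives for each of 7 results, and a median or share counts as moved where it left the main value's 95% binomial interval over peaks or regions, which covers no replicate error. Joining at 500 bp gave 240 clusters with 815 peaks, median folds of 4.99 (AB1) and 7.21 (AB2), 97.9% with 3 or more AB2 partners and a spacing of 317 bp; joining at 2000 bp gave 3079 peaks and 551 bp. Shared AB1 peaks at or above their median score gave 168 clusters, 600 peaks, folds of 6.90 and 9.56, 100% and a control signal of 0.77. Peaks at or above the 25th percentile of each list gave 346 clusters, 1285 peaks, folds of 5.49 and 7.72 and 100%. Chaining shared AB2 peaks gave an AB2 fold of 6.305, 75.4% with 3 or more AB1 partners and a spacing of 348 bp. Chaining all AB1 peaks gave 2961 peaks, an AB1 fold of 3.87, 67.9% and a control signal of 0.77. An overlap of at least 50% of the AB1 width gave 100%, summits within 50 bp gave an AB2 fold of 6.965 and 100%, and leaving out high control signals gave 0.72. The number of clusters thus ranged from 168 to 788, and it stayed within 1.5 times 526 in 7 alternatives. Fewer peaks entered under the score limits; the causes of the other shifts were not tested. No paired analysis was possible because each antibody has 1 sample and no result comes from a test.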
